A study of Mus musculus with 4 samples.

Results

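Transcripts of 10 genes that mark endothelial cells (Plvap, Cdh5, Pecam1, Kdr, Flt1, Tek, Tie1, Eng, Emcn and Cd34) were followed in heart ventricles of mouse embryos that lack HDAC2, a class I histone deacetylase, and of wild-type embryos. The genes were chosen by name, and every probe set whose platform annotation names a member and no other gene was taken. This gave 15 probe sets out of 45037 that are not controls, and 10 of the 18193 genes named on the array. Of the members, 7 had 1 probe set, Cdh5 and Eng had 2 each and Flt1 had 4.

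The HDAC2-deficient (KO) group had 2 arrays, each of RNA pooled from 3 animals, and the wild-type (WT) group had 2 arrays, each of RNA pooled from 2 animals. All embryos were at embryonic day 17.5, from a cross of C57BL/6 and SV129, and 6 µg of total RNA went on each array. The labels do not describe the mutant allele, nor say whether it is removed in all cells or in some. They leave unsaid whether any animal entered more than 1 pool, and the pools were larger in KO. The source field of both KO samples carries the abbreviation for wild type, so groups were taken from the titles. P-values measure the spread between these pools alone, which may be partly technical.

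Hdac2 itself went with the titles. At its brightest probe set, 1445684_s_at, the signal was 31.4 and 21.0 in KO, called Absent on both arrays, and 1189 and 1421 in WT, called Present on both. As a check of the labelled tissue, 12 of 12 cardiomyocyte genes were called Present on all 4 arrays. Several features of the samples differed with genotype. Xist, the RNA of the inactive X chromosome, read 548 and 794 on the KO arrays and 80.5 and 90.1 on the WT arrays at 1436936_s_at, and the labels name no sex. At 1427262_at Xist read 414 and 797 in KO, called Present on both arrays, and 1.3 and 6.1 in WT, called Absent on both. Of 4 tested genes of the X and Y chromosomes, Xist among them, 1 had a positive difference and 3 a negative one. The summed signal of 12 genes of fast and embryonic skeletal muscle was 1268 and 1265 in KO against 13312 and 12383 in WT, with 4 of the 12 called Present on both KO arrays and 12 on both WT arrays. The summed signal of 6 tested genes of bone and cartilage was 163 and 198 in KO and 619.7 and 593 in WT. No member lies on a sex chromosome in the RefSeq gene table of GRCm38.p6.

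Endothelial cells line the chambers of the heart as endocardium and line the coronary vessels and capillaries between the muscle fibres. They hold together through adhesion molecules such as VE-cadherin. They respond to vascular endothelial growth factor (VEGF) and the angiopoietins through receptors that few other cells carry, and respond also to bone morphogenetic proteins. ETS transcription factors bind a short sequence around GGAA and are known for their part in switching these genes on in this cell type.

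The promoter table of RefSeq (build GRCm38.p6) held 7 of the 10 members, all but Plvap, Cdh5 and Pecam1. The 250 bases before the transcription start were searched on both strands for 5 motifs of 6 bases. The windows of Emcn, Flt1, Kdr and Tek lie at least partly within the annotated gene. The first ETS-type motif, written AGGAAG, was found in 5 of 7 members (Cd34, Emcn, Eng, Flt1 and Tie1) and in 29.2% of 27025 promoters. The other ETS-type motif, CCGGAA, was found in Kdr alone, against 12.2% of all promoters. The GC box, searched as GGGCGG, was found in Flt1 and Kdr and in 32.9% of all promoters. The TATA box, searched as TATAAA, was found in Flt1 and in 13.0% of all. The GATA motif, searched as AGATAA, was found in 0 of 7 members and in 10.3% of all. None of the 5 motifs contains another. A match describes letters in this window and is not a bound site. The windows of Eng (chr2:32646345-32646594, plus strand), Tie1 (chr4:118489850-118490099, minus strand) and Cd34 (chr1:194938571-194938820, plus strand) are given here because all 3 hold the ETS-type motif found in most members and lie wholly before the annotated gene. They read 5′ to 3′ on the gene's strand, with that motif or its reverse complement in capitals.
Eng: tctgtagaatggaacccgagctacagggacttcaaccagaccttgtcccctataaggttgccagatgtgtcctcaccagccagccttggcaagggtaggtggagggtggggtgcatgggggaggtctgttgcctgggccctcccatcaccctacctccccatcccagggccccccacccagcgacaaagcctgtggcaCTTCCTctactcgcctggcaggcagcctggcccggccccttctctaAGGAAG
Tie1: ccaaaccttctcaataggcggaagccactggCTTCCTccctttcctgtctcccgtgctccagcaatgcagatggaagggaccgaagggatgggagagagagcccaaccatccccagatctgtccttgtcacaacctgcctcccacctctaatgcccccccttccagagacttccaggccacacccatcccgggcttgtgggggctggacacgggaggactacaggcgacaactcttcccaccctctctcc
Cd34: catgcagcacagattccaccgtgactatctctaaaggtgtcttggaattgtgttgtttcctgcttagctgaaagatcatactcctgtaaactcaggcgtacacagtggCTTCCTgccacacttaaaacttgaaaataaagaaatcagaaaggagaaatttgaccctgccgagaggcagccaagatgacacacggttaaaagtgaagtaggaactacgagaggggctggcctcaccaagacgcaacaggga
In Eng the 2 matches begin 52 and 6 bases before the start, in Tie1 the match begins 219 bases before it, and in Cd34 142 bases before it. The 3 genes with this shared feature did not share a called difference between genotypes, as given below for each.

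All 10 members were called Present on all 4 arrays at 1 or more probe sets, so endothelial transcripts were measured in KO and in WT. Of the 15 probe sets, 14 passed the filter (Present on both arrays of a group) and were tested among 19065 probe sets. One passed the threshold, an adjusted p of 0.05 in limma with Benjamini-Hochberg adjustment over all probe sets tested. It was that of Plvap, which was lower in KO. No member was higher, and 9 of the 10 members had no probe set past the threshold. Over all probe sets tested, 1.34% were called, 0.383% higher and 0.96% lower. At an unadjusted p under 0.05 there were 4 member probe sets (28.6%), against 15.5% of all. At 7 of the 14 the KO and WT signals did not overlap, close to the 47.5% of all probe sets tested. Of the 7, 2 were higher and 5 lower in KO, beside 25.0% and 22.5% of all.

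**Figure D1:**
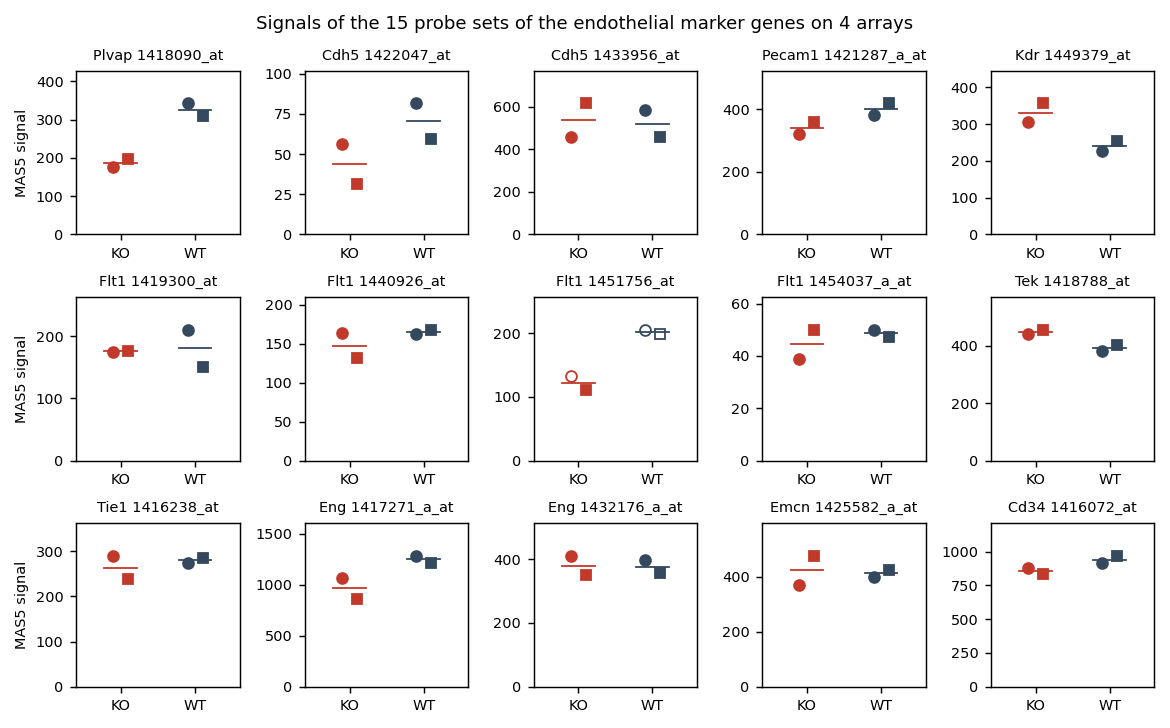
MAS5 signal (linear scale, from 0) of the 15 member probe sets, with KO left of WT in every panel. Circles are replicate 1 and squares replicate 2, filled where the call is Present and open where it is Marginal or Absent, and the line is the group mean. Plvap shows KO at 176 and 196 below WT at 342 and 309, while most other panels show overlapping or close groups.

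Plvap encodes the protein of the diaphragms that span the caveolae and fenestrae of endothelial cells, and in the embryonic heart it is known from endocardium and from some vessels. Its probe set, 1418090_at, read 176 and 196 in KO against 342 and 309 in WT. Both KO arrays lay below both WT arrays, by more than the distance between arrays of either genotype. The difference was -0.81 ± 0.16 on the log2 scale (KO minus WT ± moderated standard error, n = 2 arrays each, adjusted p = 0.0223 in limma), a level 1.75-fold lower in KO with a 95% interval of 1.38 to 2.22. It ranked 159 by p among the 19065 probe sets. In bulk tissue, fewer cells of a type and less RNA per cell cannot be told apart.

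The call on Plvap depended on the fit, although its sign did not. The adjusted p was 0.166 without WT replicate 1, 0.18 without a variance trend, 0.189 without the filter on detection and 0.357 on the deposited signal log ratio. The probe set stood past the threshold under 7 of 11 alternatives. In the signal log ratio, which the authors' software computed on a log2 scale against an unnamed baseline array, Plvap stood at 5.3 and 5.3 in KO and 6.1 and 5.8 in WT.

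Whether other tissue, RNA quality or the sex of the pools has a part in the Plvap difference was not tested. Among fast and embryonic skeletal muscle genes 12 of 12, and among bone and cartilage genes 6 of 6, had a negative difference, the direction of Plvap. Of these, 4 of 12 and 2 of 6 were called Present on both KO arrays, so no exact size is given for either list. The 3' over 5' signal ratios of the control probe sets, a sign of RNA quality, were 2.75 and 2.42 in KO and 1.85 and 2.32 in WT for actin. For Gapdh they were 1.18 and 1.01 in KO and 0.844 and 0.949 in WT. On both measures the KO arrays stood above the WT arrays. The other 9 members gave smaller values as a median, though not each of them on every array. Taking each gene's deviation from its own mean over the 4 arrays, the median of those 9 was -0.03 and -0.01 in KO and 0.02 and 0.03 in WT. For Plvap the deviations were -0.48 and -0.33 in KO, with 0.48 and 0.33 in WT. In KO replicate 2, Eng at -0.35 and Kdr at 0.34 stood further from their own means than Plvap did.

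**Figure D2:**
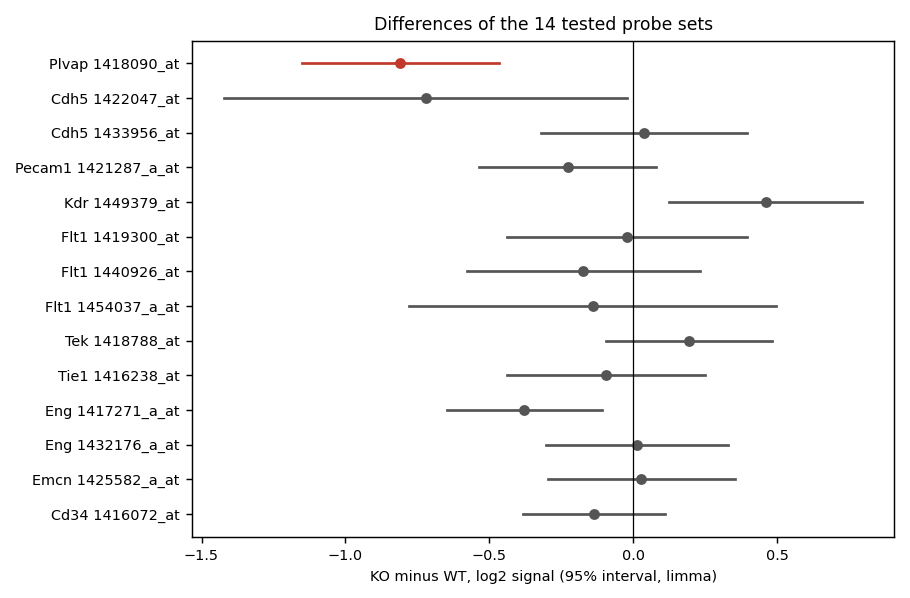
Differences in log2 signal, KO minus WT, of the 14 tested probe sets with the 95% interval of limma. Plvap, in red, is the probe set past the adjusted threshold, and the intervals of Cdh5 1422047_at, Eng 1417271_a_at and Kdr also leave out 0 before adjustment.

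The adhesion molecules and sialomucins of the endothelial surface did not pass the test. Cdh5 is VE-cadherin, the adhesion molecule of endothelial junctions, and has 2 probe sets. Its brighter probe set, 1433956_at, read 456 and 616 in KO and 583 and 457 in WT. These values overlapped, with a difference of 0.04 ± 0.17 (adjusted p = 0.941, 95% interval -0.32 to 0.39), whose sign turned with quantile normalization and with single arrays left out. The dim 1422047_at read 56.5 and 31.6 in KO against 81.6 and 59.5 in WT, with the higher KO array just below the lower WT array. That difference was -0.72 ± 0.32 (adjusted p = 0.309), and with single arrays left out it ran between -1.14 and -0.30. The 2 probe sets of Cdh5 thus differed in size and in sign.

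Pecam1, a homophilic adhesion molecule of endothelium, platelets and leukocytes, read 322 and 359.6 in KO and 379.7 and 418 in WT at 1421287_a_at. Each KO array was lower than each WT array, but with -0.23 ± 0.14 Pecam1 missed the threshold (adjusted p = 0.464, 95% interval -0.54 to 0.08). Emcn encodes endomucin, a sialomucin of venous, capillary and endocardial endothelium. It read 371 and 476 in KO and 399 and 425 in WT at 1425582_a_at. The KO arrays lay on either side of the WT arrays, with a difference of 0.03 ± 0.15 (adjusted p = 0.95, 95% interval -0.30 to 0.35).

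Cd34, a sialomucin of endothelium that blood progenitors and some mesenchymal cells also carry, read 881 and 832 in KO and 913 and 969 in WT at 1416072_at. The groups did not overlap, but the lower WT array stood close to the higher KO array. The difference was -0.14 ± 0.11 (adjusted p = 0.6), and its 95% interval, -0.38 to 0.11, was the narrowest among the member probe sets.

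The 2 receptors for VEGF-A gave different values. Kdr, the main signalling receptor, read 306 and 357 in KO against 228 and 253 in WT at its probe set 1449379_at. Both KO arrays were above both WT arrays. At 0.46 ± 0.16 it missed the threshold (adjusted p = 0.187, 1.37-fold with a 95% interval of 1.09 to 1.74), and it missed it under all 11 alternatives, where the adjusted p ran between 0.0969 and 0.812. Its sign turned in the signal log ratio, at -0.10. There the arrays stood at 1.0 and 1.4 in KO and at 1.3 and 1.3 in WT.

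Flt1, which binds VEGF-A tightly and also has a soluble form that acts as a decoy, had 3 tested probe sets, and KO and WT overlapped at each. Probe set 1419300_at read 175 and 176 in KO and 210.4 and 150.5 in WT, with a difference of -0.02 ± 0.19. Probe set 1440926_at read 163 and 131 in KO and 162 and 168 in WT, with a difference of -0.17 ± 0.19. The dim 1454037_a_at read 38.8 and 50.1 in KO and 49.9 and 47.4 in WT, with a difference of -0.14 ± 0.30. The adjusted p-values were 0.97, 0.696 and 0.86. Which transcript form each probe set reads is not stated in the annotation used.

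The remaining Flt1 probe set, 1451756_at, failed the filter and was not tested. It read 133, called Marginal, and 112, called Present, in KO, against 206 and 199.8 in WT, both called Absent. Its detection p-values were 0.0562 and 0.0461 in KO and 0.0676 and 0.112 in WT. The signal was thus higher on the arrays where the probe set was called Absent, and no fold is given.

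Tek and Tie1 are the paired receptors of the angiopoietin system, Tek binding the ligands and Tie1 modulating it. Tek read 442 and 456 in KO and 383 and 403 in WT at 1418788_at. Both KO arrays were higher, and at 0.19 ± 0.13 Tek missed the threshold (adjusted p = 0.511, 95% interval -0.10 to 0.48). Tie1 read 290.0 and 238 in KO and 274 and 286 in WT at 1416238_at. The groups overlapped, with a difference of -0.09 ± 0.16 (adjusted p = 0.821, 95% interval -0.44 to 0.25).

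Eng encodes endoglin, a co-receptor for bone morphogenetic proteins and transforming growth factor beta on endothelium. Its brighter probe set, 1417271_a_at, read 1070.3 and 861 in KO against 1285 and 1213 in WT. Both KO arrays were below both WT arrays. The difference was -0.38 ± 0.12 (adjusted p = 0.173, 1.30-fold lower in KO with a 95% interval of 1.08 to 1.57), and it passed in 1 of 11 alternatives, without KO replicate 1 (-0.54, adjusted p = 0.0277). The dimmer 1432176_a_at read 410.3 and 349 in KO and 396 and 355 in WT. There the groups overlapped, with 0.01 ± 0.15 and an adjusted p = 0.98, so the 2 probe sets of Eng did not give 1 answer.

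**Figure D3:**
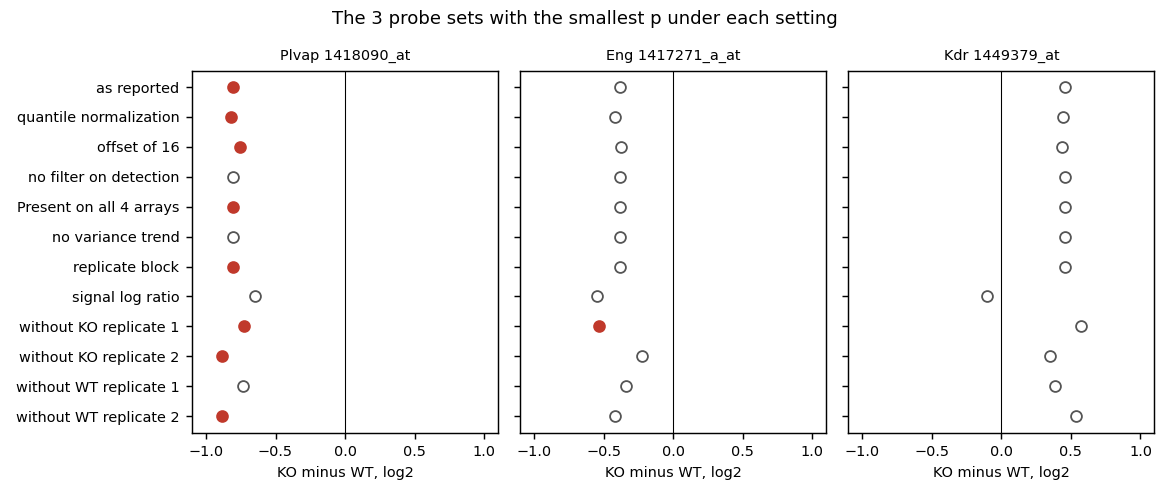
Differences in log2 signal, KO minus WT, of Plvap, Eng 1417271_a_at and Kdr as reported and under 11 alternatives. Filled points passed the adjusted threshold, and Kdr lies below 0 in the signal log ratio.

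Of the 13 member probe sets that did not pass, 12 had a 95% interval within 2-fold in both directions, the exception being Cdh5 1422047_at. With each gene taken at its brightest tested probe set, 4 members had a positive difference and 6 a negative one, and the median was -0.06, beside 0.03 over the 10184 genes tested. The summed signal of these 10 probe sets was 4489 and 4566 in KO and 4998 and 4885 in WT.

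The other genes of the vascular lists were examined to see whether the members stood alone. Of 126 genes in 10 lists, 107 were tested at their brightest probe set. None was higher and 2 were lower in KO (1.87%), beside 1.31% of all genes tested (0.491% higher and 0.815% lower), and 18 had an unadjusted p under 0.05 (16.8%, beside 15.6% of all), 4 with a positive difference and 14 with a negative one. Their median difference was -0.06 (-0.10 to -0.0145 with an array left out). The genes passing were Angptl1, a secreted protein related to the angiopoietins, and Jup, plakoglobin, which joins cadherins to the cytoskeleton in endothelial junctions and in the desmosomes of heart muscle.

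Angptl1 read 5.4 and 13.9 in KO, called Absent on both arrays, against 42.6 and 47.8 in WT, called Present on both. Angptl1 thus entered the test only through WT, the group where it was higher, so its call is not independent of the filter. It was at least 4.86-fold lower in KO (adjusted p = 0.0375), counting a KO signal below the lowest one called Present on its array as that lowest signal. Jup read 480.2 and 454 in KO against 791 and 655 in WT, a difference of -0.62 ± 0.13 (adjusted p = 0.0382). With WT replicate 1 left out, Angptl1 had an adjusted p = 0.124 and Jup 0.367. With WT replicate 2 left out Angptl1 had 0.131, and with KO replicate 2 left out Jup had 0.0853. Quantile normalization gave Angptl1 an adjusted p = 0.0664, and neither gene passed without the variance trend, without the filter on detection or in the signal log ratio. Mef2c, a transcription factor of muscle and endothelium, fell by 0.82 at the dimmer 1451506_at (adjusted p = 0.0371) and stood at -0.20 ± 0.13 at its brightest probe set (adjusted p = 0.483). The call at 1451506_at was lost without KO replicate 2 (0.13), WT replicate 1 (0.114) or WT replicate 2 (0.104), without the filter (0.26), without the trend (0.223) and in the signal log ratio (0.424).

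The ligands of the receptors among the members showed no called difference. Vegfa, the ligand of Kdr and Flt1, read 853 and 726 in KO and 789.9 and 692 in WT, with 0.09 ± 0.13 (adjusted p = 0.781). Vegfb, which binds Flt1, read 1109 and 1169 in KO and 1603 and 1256 in WT, with -0.32 ± 0.13 (adjusted p = 0.253). Angpt1, the activating ligand of Tek, overlapped between genotypes at 0.09 ± 0.21 (adjusted p = 0.886), and Angpt2 and Pgf had no Present call on any array. Among 11 tested ligands, receptors and partners of this list, 0 were higher and Angptl1, tested through WT alone, was the 1 lower gene.

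Around endoglin, 0 of 11 tested genes passed in either direction, and 1 had an unadjusted p under 0.05 (9.09%, beside 15.6% of all genes tested). The median was 0.02 (-0.0876 to 0.11 with an array left out). Id1, a target gene of bone morphogenetic protein signals, read 694 and 672 in KO and 900.4 and 764 in WT (-0.28 ± 0.13, adjusted p = 0.306). The ligands Gdf2 and Bmp10, which bind endoglin's partner receptor, had no Present call on any array. That partner, Acvrl1, overlapped between genotypes at its brightest probe set, at -0.45 ± 0.27 (adjusted p = 0.431). This value rested on single arrays, with -0.0876 without KO replicate 2 and -0.82 without KO replicate 1. At the dimmer 1435825_at Acvrl1 read 41.6 and 67.5 in KO against 84.5 and 69.1 in WT. There the groups did not overlap, with -0.53 ± 0.29 (adjusted p = 0.400).

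**Figure D4:**
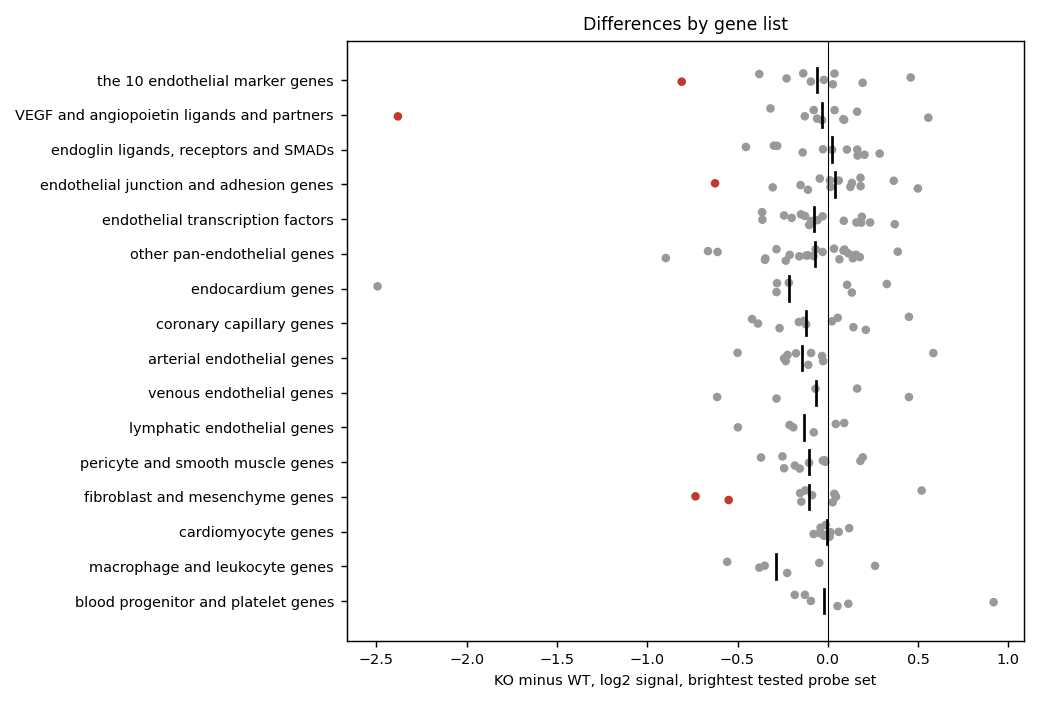
Difference in log2 signal, KO minus WT, of each tested gene at its brightest probe set, by list, with the list median as a black bar and genes past the adjusted threshold in red. The medians of the vascular lists lie between -0.22 and 0.04, and the 10 endothelial marker genes have a median of -0.06.

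Other endothelial genes spread to both sides of 0. In the junction list, 9 of 14 tested genes had a positive difference, and Jup was the 1 called. Among 24 further pan-endothelial genes, 0 passed and 3 had an unadjusted p under 0.05 (12.5%, beside 15.6% of all genes tested). The median was -0.07 (-0.14 to -0.0187 with an array left out). Exoc3l2, an exocyst protein, came closest, at 204 and 153 in KO against 400.2 and 270.4 in WT (-0.90 ± 0.21, adjusted p = 0.0512). Its probe set was not called Present on all 4 arrays, so its value is not independent of the filter on detection. Next came Mmrn2, a matrix protein of vessels, at -0.66 ± 0.17 (adjusted p = 0.0737). Exoc3l2 passed with the offset of 16 (0.0441), under the replicate block (0.000414) and when KO replicate 1 (0.0163) or WT replicate 2 (0.00426) was dropped. Mmrn2 passed with the replicate block (0.0129) and without KO replicate 1 (0.0179). Mmrn2 had a probe set of the opposite sign, 1437123_at, at 0.51 ± 0.19 (adjusted p = 0.231). Among 16 tested transcription factors of endothelium, 0 passed at the brightest probe set and 1 had an unadjusted p under 0.05, Fli1, an ETS factor, at -0.36 ± 0.14 (adjusted p = 0.24).

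The subtypes of endothelium were not set apart by a called gene in the fit as reported. Of 7 endocardial, 11 capillary, 10 arterial, 5 venous and 6 lymphatic genes tested, 0 passed in each list in limma. At an unadjusted p under 0.05 there were 1, 3, 1, 2 and 1, and the medians were -0.22, -0.12, -0.14, -0.07 and -0.13. These medians were unstable. The endocardial one was 0.12 with Present on all 4 arrays and -0.0602 without WT replicate 2, and the capillary one was -0.0172 without WT replicate 1. The venous median was 0.0679 with quantile normalization and -0.0099 at its nearest to 0 with an array left out. The lymphatic median was 0.075 in the signal log ratio and -0.0143 without KO replicate 2. The arterial median was -0.025 in the signal log ratio and -0.0879 with quantile normalization, and ran between -0.20 and -0.0972 with an array left out. In the arterial list, 9 of 10 genes had a negative difference, against 44.3% of all genes tested, and Efnb2, an ephrin of arteries, was the exception at 0.58 ± 0.25 (adjusted p = 0.289). Efnb2 rested on single arrays. Leaving out WT replicate 1 gave 1.04 (adjusted p = 0.0197), past the threshold, while leaving out WT replicate 2 gave 0.13 (adjusted p = 0.87), and it stood at 0.05 in the signal log ratio. In the capillary list, Aplnr, the apelin receptor, read 2371 and 2050.2 in KO against 1425 and 1830 in WT (0.45 ± 0.13, adjusted p = 0.113), while its ligand Apln read 299 and 243 in KO against 384 and 339 in WT (-0.42 ± 0.16, adjusted p = 0.231). At the brighter Aplnr probe set, 1438651_a_at, the threshold was passed under the replicate block (adjusted p = 0.0208) and when WT replicate 2 was left out (adjusted p = 0.0331). Its other probe set, 1423037_at, overlapped between genotypes at -0.08 ± 0.18 (adjusted p = 0.874), so the 2 probe sets of Aplnr differed in sign.

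Markers of other cell types were read beside the members. Over all genes tested, 1.31% passed, 15.6% had an unadjusted p under 0.05 and the median was 0.03. Of 6 tested blood progenitor and platelet genes, a lineage that also makes Cd34 and Pecam1, 0 passed (1 at an unadjusted p under 0.05) and the median was -0.02 (0.0735 without KO replicate 1), with summed signals of 889.7 and 881 in KO and 929.7 and 938 in WT. Of 6 macrophage and leukocyte genes, 0 passed (1 at an unadjusted p under 0.05) and the median was -0.29 (-0.13 without WT replicate 2), with 1074 and 1062 in KO and 1157 and 1333 in WT. Of 11 pericyte and smooth muscle genes, the cells that wrap vessels, 0 passed (2 at an unadjusted p under 0.05) and the median was -0.10 (-0.0437 without KO replicate 1). In the fibroblast list, 4 of 10 genes had a positive difference and 6 a negative one, and the median was -0.11 (-0.005 without WT replicate 1). At an unadjusted p under 0.05 there were 3, of which 1 was higher and 2 lower. The 2 lower genes passed the threshold (20.0%, beside 1.31% of all genes tested). They were Col1a1 (-0.73 ± 0.10, adjusted p = 0.00199) and Col1a2 (-0.55 ± 0.10, adjusted p = 0.0118), the chains of type I collagen. Without WT replicate 2, Col1a2 had an adjusted p = 0.102. Both genes missed the threshold without the filter (0.0618 for Col1a1 and 0.169 for Col1a2), without the trend (0.178 and 0.263) and in the signal log ratio (0.356 for each). Of 3 tested erythroid genes 1 was higher, Hbb-y, an embryonic globin of red cells. It read 77.2 and 55.6 in KO, called Present on both arrays, against 9.8 and 18.8 in WT, called Absent on both. Hbb-y thus entered the test only through KO, the group where it was higher, so its call is not independent of the filter. Its signals were 4.83-fold higher in KO (adjusted p = 0.0128), a point estimate and not a bound, since WT was called Absent. With the offset of 16 the log2 difference was 1.45, against 2.27 as reported. The call was lost without the filter (0.302), without the trend (0.158) and in the signal log ratio (0.357). It was also lost without KO replicate 1, where the log2 difference was 2.03. Of the 12 cardiomyocyte genes, 0 passed in limma, 0 had an unadjusted p under 0.05 and the median was -0.0031.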

How the data were processed

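Total RNA of pooled ventricles was labelled with biotin and hybridised to 4 Affymetrix MOE430v2 arrays. Per the submitters' processing notes the arrays were analysed with MAS5, version not given in the sources used here. Per the file headers, each probe set has an intensity (the MAS5 signal, linear, 1 colour), a p-value of detection and its call (Present, Marginal or Absent), and a signal log ratio, which the authors' software gave on a log2 scale against an unnamed baseline. The signals in the deposited series table were those of the array files. All arrays had a trimmed mean signal of 150.0, so no scaling was added.

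Of 45101 probe sets, 64 controls were left out. Names came from the platform annotation (34945 probe sets with 1 gene, 932 with several, 9160 with none), updated through RefSeq for 34741. Signals of 0 were set to 0.1 before log2. Probe sets Present on both arrays of a group were fitted with limma 3.58.1 (lmFit, eBayes with a variance trend) in R 4.3.3, with genotype as the factor. P-values are two-sided and adjusted by Benjamini-Hochberg over 19065 probe sets. The procedure was tested on simulated data. The number of arrays, 2 per group, limits the precision.

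The alternatives were quantile normalization, 16 added to each signal, all probe sets kept whatever their call, only those Present on 4 arrays, eBayes without the trend, a replicate block, the signal log ratio and each array left out. The median of the members was also taken over the mean of all probe sets of a gene. The members, lists and tests were chosen with earlier results of these data known. All member probe sets are named; of each list, genes past the threshold are named, otherwise up to 4 with the smallest p, for other cell types called ones, and ligands of member receptors besides. List genes are given at their brightest tested probe set, and no list was tested as a set. Ccl21a, Ly6a, Hbb-bt, Ahsp, Bglap, Spp1 and Ddx3y were not matched to a probe set.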

Additional observations from a re-analysis of the deposited data

How the results depend on the processing

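With 2 arrays per group, calls rested on the variance model. The difference of Plvap kept its sign under all 11 alternatives, but it was not past the threshold without the filter on detection (-0.81), without a variance trend (-0.81), in the signal log ratio (-0.65) and without WT replicate 1. With single arrays left out it ran between -0.89 and -0.73. The count of member probe sets called lower was 0 without the filter, without the trend and in the signal log ratio, and 0 to 2 with an array left out, the 2 being Plvap and Eng 1417271_a_at without KO replicate 1 (Eng between -0.54 and -0.22). No member was higher under any alternative.

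Some differences turned sign. With quantile normalization these were Cdh5 1433956_at (-0.0056), Flt1 1454037_a_at (0.002), Eng 1432176_a_at (-0.0097) and Emcn (-0.0115). In the signal log ratio these were Kdr (-0.10), Flt1 1419300_at (0.05), Eng 1432176_a_at (-0.60), Prox1 (0.05), Tal1 (-0.20), Thy1 (0.10) and Vegfb (0.3), and Vegfa stood at 0. With single arrays left out, Cdh5 1433956_at ran between -0.18 and 0.25, Flt1 1419300_at between -0.26 and 0.22, Flt1 1454037_a_at between -0.33 and 0.0428, Tie1 between -0.24 and 0.0499, Eng 1432176_a_at between -0.11 and 0.13, Emcn between -0.15 and 0.21, Prox1 between -0.5279 and 0.1464, Reln between -0.0926 and 0.2743, Vegfa between -0.0263 and 0.2073, Angpt1 between -0.1774 and 0.349 and Aplnr 1423037_at between -0.1797 and 0.0247. The median of the members was -0.15 in the signal log ratio, -0.12 over the mean of all probe sets of a gene and between -0.12 and -0.0702 with an array left out.

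Over all probe sets, 73 were higher and 183 lower as reported, 7 and 30 without the filter, 4 and 19 without the trend, 0 and 0 in the signal log ratio (limma), 271 and 450 with the replicate block, and 48 to 222 and 110 to 428 with an array left out. Of the other vascular genes, 2 were lower as reported, 1 with quantile normalization, 1 with Present on all 4 arrays, 0 without the filter, without the trend and in the signal log ratio, 6 with the replicate block and 0 to 6 with an array left out. The count higher was 1 with the replicate block and 0 to 1 with an array left out. The replicate numbers are not stated to pair the samples, and deviations of same-numbered arrays correlated at -0.0113 over 19065 probe sets. Under that block Plvap passed (adjusted p = 0.00179) and no other member did. The cause of these shifts was not tested.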
